A study of Mus musculus with 6 samples.

Results

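The epithelial keratins and cell junction genes are a set of 36 genes, named one by one as entries of the deposited count table, out of 23791 entries in all. They were taken in 6 RNA sequencing libraries of mouse RM1 prostate cancer cells (strain C57BL/6). They comprise 8 keratins, 4 adhesion and surface genes, 6 claudins, 6 other tight junction genes, 8 desmosome genes and 4 epithelial regulators, and all 36 were found in the table. The libraries fall into 4 groups. Bone and lung are 1 library each of RM1536 cells taken out of the femur and the lung of a single mouse, 16 days after cells stained with the membrane dye PKH26 had been injected into the heart. Only cells that had lost the dye, labelled as proliferating, were kept. RM1536 (libraries a and b) is RM1 carrying eCFP, a fluorescent protein, and luc2, a luciferase, built from pooled clones and kept in culture. RM1 (libraries a and b) is the unlabelled parental line in culture. Cells of all groups were sorted by FACS and then grown in DMEM with 5% FBS until they covered 85% of a T75 flask, so bone and lung are libraries of cells regrown in culture, not of tissue.

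Keratins pair as a type I and a type II chain to build the intermediate filaments of epithelial cells, with Krt8 and Krt18 as the pair of simple epithelia such as the luminal layer of the prostate. Those filaments are anchored at desmosomes, where desmoplakin and plakoglobin link them to the cadherins desmoglein and desmocollin. Tight junctions, made of claudins, occludin and junctional adhesion molecules on a scaffold of ZO proteins, seal the space between neighbouring cells. E-cadherin and EpCAM hold epithelial cells to each other, and the factors Grhl2 and Ovol1 with the splicing factors Esrp1 and Esrp2 are known to keep the epithelial program on.

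Depth was 22763835 to 30303566 counts a library. Levels are given as CPM, counts scaled to a common library size with TMM, a normalization between libraries, and the limit that 0 reads allow (3 reads, counting error only) was 0.0971 to 0.132 CPM. Counts of a and b differed by more than sampling noise (chi-square divided by its degrees of freedom, 65.3 in RM1536 and 64.9 in RM1). Nothing in the labels says that a and b were separate cultures, so p-values measure the spread between these samples, which may be technical. The labelled cell type was checked against markers. The luminal keratins Krt8 and Krt18 were high in every library, while the prostate factor gene Hoxb13 and the basal keratin gene Krt5 had 0 reads in all 6. Of 10 mesenchymal markers, all were expressed in at least 1 library, with summed levels of 5230 CPM in bone, 9870 in lung, 6010 and 6180 in RM1536, and 4860 and 5580 in RM1. Most of each sum was Vim and Fn1. Vim stood at 3990 CPM in bone and 3420 in lung, Fn1 at 780 in bone and 5290 in lung, and Col1a1 at 0.791 in bone and 604 in lung. Of 13 lung epithelium markers 8 have an entry, and Sftpc, Sftpb and Scgb1a1 had at most 3 reads in any library; the list summed to 9.31 CPM in bone, 6.04 in lung, 4.22 and 2.72 in RM1536, and 1.74 and 1.73 in RM1, Hopx being the highest in bone and lung. Of 13 leukocyte markers 11 have an entry, with summed levels of 25.9 CPM in bone, 24.3 in lung, 11.8 and 4.6 in RM1536, and 11.6 and 45.5 in RM1. Most of each sum was Cd68, at 19.7 CPM in bone, 20.2 in lung, 11.2 and 3.59 in RM1536, and 9.59 and 43.5 in RM1. The leukocyte gene Ptprc had 0 to 2 reads, and Lyz2, a gene of myeloid cells, had 61 reads in bone, 73 in lung and 0 in the 4 cultures. Osteoblast and osteoclast markers summed to 7.77 CPM in bone, 16 in lung, 3.02 and 1.42 in RM1536, and 25.0 and 6.8 in RM1. Summed mesothelium markers lay between 8.89 and 43.4 CPM, with both ends in the cultures, endothelium markers between 3.11 and 5.74 CPM and erythroid markers at 0.747 CPM or less.

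Levels spanned the whole range from the most abundant transcripts to none. Per length of exon, Krt8 averaged 824 CPM per kb over the 6 libraries and ranked 37 among 23100 genes with a known length. Krt18 followed at 254 CPM per kb (rank 178) and Krt19 at 60.2 (rank 798). The scaffold gene Tjp1 (33.4 CPM per kb), the adhesion molecule gene F11r (26.3), plakoglobin, Jup (26.3), Pkp4 (18.3), Cldn6 (17.7) and Cldn12 (14.1) made up the next tier, and the other 27 genes lay at 3.21 CPM per kb or less. Krt8 and Krt18 together took 78.0% of the reads of the set in bone, 75.0% in lung, 78.8% and 68.4% in RM1536, and 60.0% and 53.8% in RM1. The ratio of Krt8 to Krt18, per length, was 4.73 in bone, 3.33 in lung, 3.4 and 3.6 in RM1536, and 2.77 and 1.81 in RM1, so the type II chain was the more abundant transcript in each library.

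**Figure D1:**
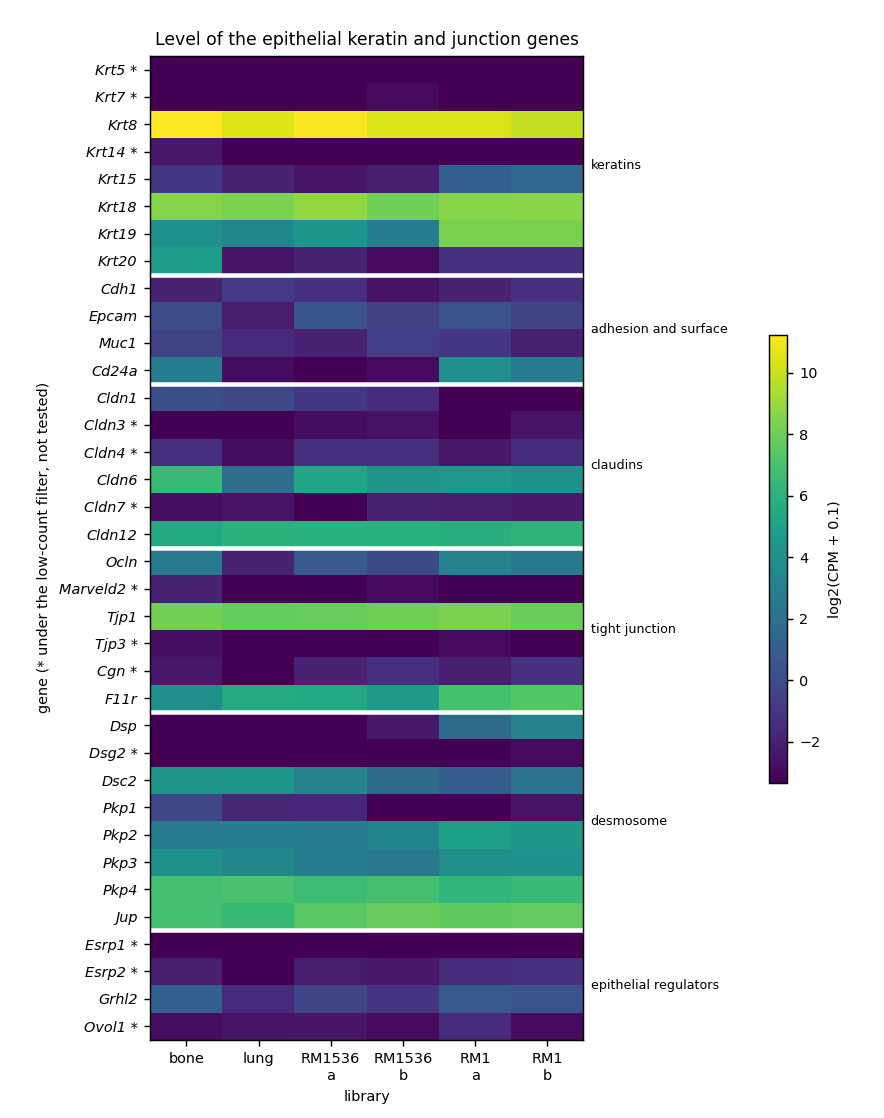
Level of the 36 genes (rows, grouped by role) in the 6 libraries (columns), as log2(CPM + 0.1) by colour; an asterisk marks the 13 genes under the low-count filter. Krt8 and Krt18 are bright in all 6 libraries, Krt19 is bright in the RM1 pair, and Krt20 is bright in bone.

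Low counts kept 13 genes out of the tests, and 23 passed the filter. A gene could pass through any single library, since bone and lung are groups of a single library each. The 13 were Krt5, Krt7, Krt14, Cldn3, Cldn4, Cldn7, Marveld2, Tjp3, Cgn, Dsg2, Esrp1, Esrp2 and Ovol1, none with more than 10 reads in a library. Of these, Krt5 and Esrp1 had 0 reads in all 6. Cldn4 reached 0.324 CPM, the highest level among them. These are the basal keratin pair of Krt5 and Krt14, the barrier claudins Cldn3, Cldn4 and Cldn7, tricellulin (Marveld2), the ZO protein gene Tjp3, cingulin (Cgn), desmoglein 2 and 3 of the 4 regulators. Cdh1, which encodes E-cadherin, was hardly higher. It had 4 reads in bone, 11 in lung, 7 and 2 in RM1536, and 5 and 8 in RM1, which is 0.0647 to 0.434 CPM with overlapping groups. Epcam stood at 0.922 CPM in bone, 0.118 in lung, 1.33 and 0.583 in RM1536, and 1.24 and 0.708 in RM1, also overlapping between the cultures. Muc1, a membrane mucin gene, had 4 to 17 reads in each library.

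The first comparison sets the labelled, pooled line against the line it came from. In RM1536, 7 of the 23 tested genes were lower than in RM1 and 0 were higher, by the edgeR quasi-likelihood test at a Benjamini-Hochberg adjusted p under 0.05. They were the keratins Krt19 and Krt15, the surface gene Cd24a, the tight junction genes Ocln and F11r, and the desmosome genes Dsp and Pkp2, with log2 fold changes between -8.84 and -1.67. Over all 13832 genes tested, 5.64% were called in this comparison, 3.54% as lower and 2.1% as higher. As a description, the median log2 fold change was -0.18 over the tested members and 0.02 over all genes. Labelling, cloning and pooling differ together between the lines and cannot be told apart. In these bulk libraries fewer cells with a transcript and less of it per cell cannot be told apart either.

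**Figure D2:**
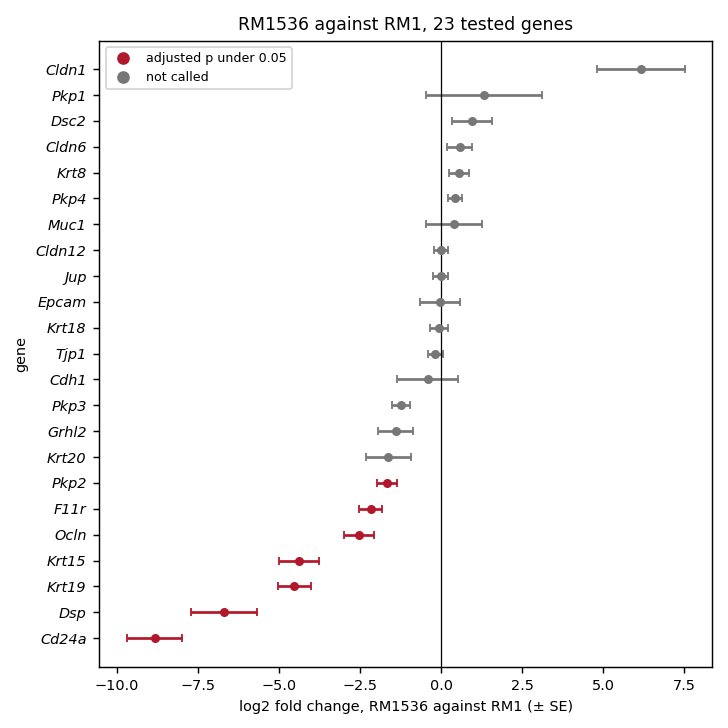
Log2 fold change of RM1536 against RM1 with its standard error for the 23 tested genes, sorted, with the 7 genes at an adjusted p under 0.05 in red. All 7 lie left of 0, between -8.84 (Cd24a) and -1.67 (Pkp2). Cldn1, at the top, had 0 reads in RM1, so its fitted value depends on the prior count.

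Among the tested keratins of the set, Krt19 had the log2 fold change farthest from 0. Krt19 (chr11:100140810-100148665, minus strand), a type I keratin of simple and ductal epithelia, stood at 15.9 CPM in bone, 10.2 in lung, 19.5 and 7.25 in RM1536, and 309.7 and 307 in RM1. Every library of the labelled line, recovered or not, lay far below both RM1 libraries. Krt19 averaged 13.4 ± 8.67 CPM in RM1536 and 308 ± 1.86 CPM in RM1 (SD, n = 2 each), a log2 fold change of -4.53 ± 0.51 (SE; edgeR adjusted p = 0.0132). Krt15 (chr11:100131758-100135928), the type I keratin of basal and stem-like epithelial cells, had 9 reads in bone, 4 in lung, 2 and 4 in RM1536, and 58 and 76 in RM1. The groups did not overlap and the log2 fold change was -4.38 ± 0.61 (edgeR adjusted p = 0.0198), at a level of 2.69 CPM or less throughout. The abundant pair did not pass. Krt8 (chr15:101996698-102004482) stood at 2367 CPM in bone, 1467 in lung, 2124 and 1349 in RM1536, and 1407 and 966 in RM1. RM1536 b lay below RM1 a, so the groups overlapped (0.55 ± 0.31, edgeR adjusted p = 0.357). Krt18 (chr15:102028180-102032027), its type I partner, stood at 368 CPM in bone, 323 in lung, 458 and 275 in RM1536, and 373 and 392 in RM1, and the RM1 pair lay between the RM1536 libraries (-0.06 ± 0.28, edgeR adjusted p = 0.927). A processed pseudogene, Krt8-ps, shares 941 bases with Krt8 at 98.6% identity and took 6 to 11 reads a library, so a small part of the Krt8 count could be split.

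Of the adhesion and surface genes, Cd24a was the gene with a call. Cd24a (chr10:43578284-43584265) encodes a small, heavily glycosylated surface protein of epithelial and immature cells. It had 159 reads in bone, 1 in lung, 0 and 1 in RM1536, and 417 and 186 in RM1. Lung and the RM1536 pair were at or next to 0, while bone lay just above RM1 b in CPM (6.98 in bone, against 13.9 and 6.59 in RM1). RM1536 had 1 read against 603 in RM1, a ratio of 0.00173 with an exact 95% counting interval of 4.37e-05 to 0.00968 (edgeR adjusted p = 0.00966). A pseudogene, Gm6212, matches 218 bases of Cd24a at 96.8% identity. Cdh1 (-0.42 ± 0.93, edgeR adjusted p = 0.833), Epcam (-0.04 ± 0.62, 0.979) and Muc1 (0.41 ± 0.87, 0.826) did not pass, with few reads behind each value.

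Of the tight junction genes, 2 were called. Ocln (chr13:100496507-100552718, minus strand), which encodes occludin, a strand protein of the junction, stood at 6.37 CPM in bone, 0.158 in lung, 1.57 and 0.874 in RM1536, and 8.38 and 5.7 in RM1. RM1536 lay below both RM1 libraries, averaging 1.22 ± 0.492 CPM against 7.04 ± 1.9 CPM in RM1 (SD, n = 2 each; log2 fold change -2.53 ± 0.45, edgeR adjusted p = 0.0359). F11r (chr1:171437535-171464603, plus strand), which encodes junctional adhesion molecule A, stood at 14.7 CPM in bone, 47.4 in lung, 42.7 and 22.3 in RM1536, and 128 and 164 in RM1. RM1536 lay below both RM1 libraries again, averaging 32.5 ± 14.4 CPM against 146 ± 25.4 CPM in RM1 (SD, n = 2 each; -2.17 ± 0.36, edgeR adjusted p = 0.0291). None of the claudins, which set the selectivity of the seal, was called. Cldn1 had 23 reads in bone, 20 in lung, 10 and 8 in RM1536, and 0 in both RM1 libraries. It was at least 6.26-fold higher in RM1536 against a limit of 3 reads over the RM1 pair, and it missed the threshold (edgeR adjusted p = 0.073). Cldn6 (0.58 ± 0.38, edgeR adjusted p = 0.428), a claudin of embryonic epithelia, did not pass, and neither did Cldn12 (-0.01 ± 0.22, 0.99) nor the scaffold gene Tjp1, which encodes ZO-1 (-0.18 ± 0.23, 0.694).

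Sequences before the transcription start are shown for 5 genes: Ocln, F11r and Dsp as called genes of the junctions, Krt20 as the keratin with the highest ratio between bone and the other libraries, and Epcam as a gene at 1.33 CPM or less in all of them. They come from the RefSeq promoter table (build GRCm38.p6), which holds 23 of the 36 genes, and each reads 5′ to 3′ on the strand of its gene, up to 250 bases before the RefSeq start and without bases inside the annotated gene. Capitals mark the E-box CACCTG on either strand (CAGGTG on the other), the core bound by the repressors Zeb1, Zeb2, Snai1 and Snai2. Of the 23 genes, 10 (43.5%) held this E-box within 250 bases before the RefSeq start, among them F11r at position -122 and Epcam at -187 and -19. This count includes Krt7, Krt8 and Cldn6, whose match lay inside the annotated gene. The 23 genes include Krt7, Krt14 and Tjp1, whose whole window lay inside the annotated gene. Of 32851 RefSeq promoters of the same length, 17.2% held this E-box. For the 23 genes the start nearest the annotated one was used, a choice not made for the 32851. The Grainyhead-like site AACCGGTT, its own reverse complement, was in 0 of the 23 and in 0.116% of all promoters. These matches describe letters, and no binding was measured. The windows are chr13:100552719-100552968 (minus) for Ocln, chr1:171437311-171437534 (plus) for F11r, chr13:38151044-38151293 (plus) for Dsp, chr11:99438154-99438403 (minus) for Krt20 and chr17:87635729-87635978 (plus) for Epcam.
Ocln: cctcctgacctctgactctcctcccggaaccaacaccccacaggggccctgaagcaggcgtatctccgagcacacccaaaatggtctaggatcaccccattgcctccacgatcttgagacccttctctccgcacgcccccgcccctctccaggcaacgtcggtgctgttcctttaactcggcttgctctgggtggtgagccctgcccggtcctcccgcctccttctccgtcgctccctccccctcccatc
F11r: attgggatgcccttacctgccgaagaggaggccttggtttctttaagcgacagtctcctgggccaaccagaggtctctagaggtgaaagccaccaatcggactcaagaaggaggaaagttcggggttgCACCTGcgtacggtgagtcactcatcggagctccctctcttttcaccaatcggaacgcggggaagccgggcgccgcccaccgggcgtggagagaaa
Dsp: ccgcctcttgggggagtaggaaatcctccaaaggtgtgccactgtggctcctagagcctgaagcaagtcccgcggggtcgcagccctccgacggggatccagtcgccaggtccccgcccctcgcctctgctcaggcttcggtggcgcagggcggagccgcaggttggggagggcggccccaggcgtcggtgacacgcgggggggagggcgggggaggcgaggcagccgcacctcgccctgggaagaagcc
Krt20: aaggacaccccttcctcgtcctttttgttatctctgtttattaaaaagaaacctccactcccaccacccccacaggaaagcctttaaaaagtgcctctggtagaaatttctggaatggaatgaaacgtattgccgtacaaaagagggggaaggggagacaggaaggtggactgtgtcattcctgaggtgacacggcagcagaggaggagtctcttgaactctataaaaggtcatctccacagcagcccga
Epcam: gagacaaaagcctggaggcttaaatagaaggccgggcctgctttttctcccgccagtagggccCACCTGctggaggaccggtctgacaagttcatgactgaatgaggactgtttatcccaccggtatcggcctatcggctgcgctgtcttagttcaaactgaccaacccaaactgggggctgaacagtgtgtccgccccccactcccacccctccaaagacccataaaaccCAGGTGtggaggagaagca

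Of the desmosome genes, 2 were called as well. Dsp (chr13:38151294-38198577), which encodes desmoplakin, the plaque protein that ties keratin filaments to the membrane, had 0 reads in bone, 0 in lung, 0 and 3 in RM1536, and 95 and 249 in RM1. The 4 libraries of the labelled line were at or next to 0, and both RM1 libraries were above them. RM1536 had 3 reads against 344 in RM1, a ratio of 0.0091 with an exact 95% counting interval of 0.00187 to 0.0268 (edgeR adjusted p = 0.0241; 0.204 with DESeq2). Gm10129, on the opposite strand, overlaps 499 exon bases of Dsp, and the strand setting of the counts is not given in the sources used here. Pkp2 (chr16:16213318-16272712), plakophilin 2, stood at 6.37 CPM in bone, 7.7 in lung, 6.32 and 9.32 in RM1536, and 28.9 and 20.8 in RM1. It averaged 7.82 ± 2.12 CPM in RM1536 and 24.8 ± 5.74 CPM in RM1 (SD, n = 2 each), without overlap (-1.67 ± 0.32, edgeR adjusted p = 0.0419). Pkp3, plakophilin 3, lay lower in RM1536 as well, at 7.56 and 5.5 CPM against 14.4 and 16.5 CPM in RM1, and just missed the threshold (-1.24 ± 0.28, edgeR adjusted p = 0.0625). Jup, plakoglobin, which serves both desmosomes and adherens junctions, had 175 and 230 CPM in RM1536 against 199 and 210 CPM in RM1 (-0.01 ± 0.22, edgeR adjusted p = 0.979). The armadillo protein gene Pkp4 (0.43 ± 0.21, edgeR adjusted p = 0.283), the desmosomal cadherin gene Dsc2 (0.96 ± 0.62, 0.409) and Pkp1 (1.32 ± 1.79, 0.715) did not pass.

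Among the regulators Grhl2, a Grainyhead-like transcription factor gene, was the one with enough reads for a test. It stood at 2.11 CPM in bone, 0.237 in lung, 0.724 and 0.356 in RM1536, and 1.6 and 1.24 in RM1. RM1536 lay below both RM1 libraries and missed the threshold (-1.41 ± 0.55, edgeR adjusted p = 0.199). Esrp2 had 3 reads in bone, 0 in lung, 3 and 3 in RM1536, and 7 and 8 in RM1, and it overlaps 219 exon bases of Nfatc3 on the opposite strand.

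**Figure D3:**
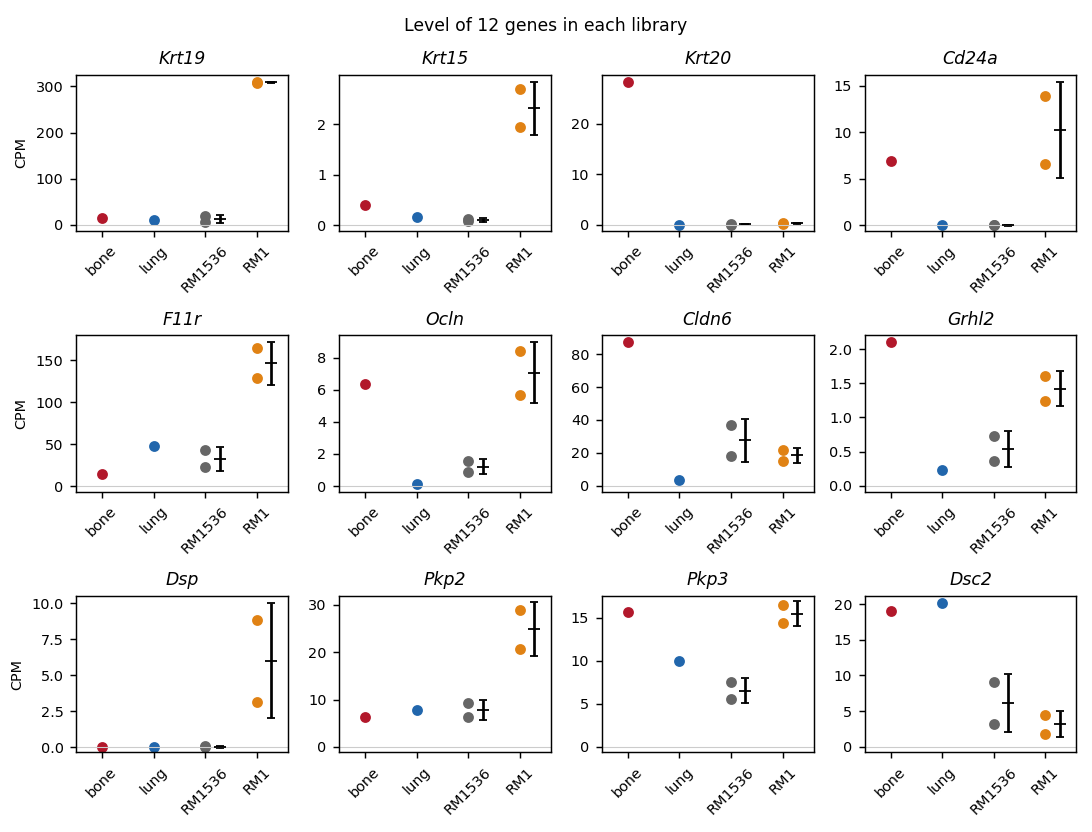
CPM of 12 genes in each library (points), with the mean and SD (n = 2) beside the RM1536 and RM1 pairs; each panel has its own scale from 0. Krt19, Krt15, F11r, Dsp and Pkp2 are high in RM1 alone, Cd24a, Ocln, Pkp3 and Grhl2 are high in RM1 and in bone, and Krt20 and Cldn6 are highest in bone.

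The 7 calls rested unevenly on the libraries. Krt19 and Cd24a were called under all 10 alternatives tried, while only these were called without RM1536 b and 3 members were called without RM1536 a. Leaving out RM1 a left 5 and leaving out RM1 b left 7. DESeq2 also called 7 members, with Pkp3 in place of Dsp, at a background of 10.8% of 13563 genes (4.07% as higher and 6.78% as lower). With the library letter as a block, 3 members were called.

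The next comparisons ask how cells recovered from a site differ from the cultured line they started as. Bone and lung are single libraries, and the fit gives them the spread of the cultured pairs. Both come from the same mouse, so no value covers the spread between animals. In bone against RM1536, Krt20, Cd24a, Ocln and Cldn6 stood higher in reads, but 0 members were called, against 0.0145% of all genes (2 genes). By unadjusted p under 0.05 there were 8 members among 1372 genes. DESeq2 called 4 members as higher, the 4 just named, at a background of 2.97% of 12759 genes (1.34% as higher and 1.63% as lower). As a description, the median log2 fold change was 0.45 over the tested members and -0.03 over all genes. This median includes Krt20 and Pkp1 (645 and 18 reads in bone), which passed the low-count filter through bone alone. Krt20 is also among the 8 members and the 4 DESeq2 calls.

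Krt20 (chr11:99428403-99438150, minus strand), a type I keratin known from the gut lining and urothelium, had 645 reads in bone, 2 in lung, 4 and 1 in RM1536, and 9 and 8 in RM1. Bone was the one library with more than 9 reads, at 28.3 CPM against 0.301 CPM or less elsewhere. Krt20 thus passed the low-count filter through bone alone. Its p-values and DESeq2 calls for bone are those of a gene picked by its bone level. Under the stricter filter (1 CPM in 2 libraries) it was not tested. The ratio of bone to RM1536 was 316, with an exact 95% counting interval of 135 to 976 (log2 fold change 8.21 ± 0.66, edgeR adjusted p = 0.0642). Cd24a had 159 reads in bone against 1 in RM1536, a ratio of 389 (interval 68.9 to 15500, edgeR adjusted p = 0.0808). Both passed without RM1 a (edgeR adjusted p = 0.0171 for Krt20 and 0.0337 for Cd24a) and without RM1 b (0.00521 and 0.0102), and neither passed without RM1536 a or b. Ocln, at 6.37 CPM in bone against 1.57 and 0.874 CPM in RM1536, had a log2 fold change of 2.39 ± 0.51 (edgeR adjusted p = 0.178). Cldn6 (chr17:23679249-23682446) stood at 87.2 CPM in bone, 3.51 in lung, 36.9 and 18.3 in RM1536, and 21.7 and 15.3 in RM1, and bone lay above all other libraries (1.66 ± 0.45 against RM1536, edgeR adjusted p = 0.28). Pkp3 (1.27 ± 0.33, edgeR adjusted p = 0.265) and Grhl2 (1.97 ± 0.63, 0.363) were also above both RM1536 libraries in bone. Jup, at 116 CPM in bone against 175 and 230 CPM in RM1536 (-0.80 ± 0.28, edgeR adjusted p = 0.411), and F11r (-1.14 ± 0.45, 0.481) were below both. Leukocyte, lung epithelium and bone cell markers, given above, were measured in the same libraries, and their part in these differences was not tested.

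Set beside the parental line, bone took different positions for different genes. Cd24a (6.98 CPM), Ocln (6.37) and Pkp3 (15.7) in bone lay inside the range of the RM1 pair, and Grhl2 (2.11) lay above it. Krt19 (15.9 CPM), Krt15 (0.395), F11r (14.7), Pkp2 (6.37) and Dsp (0 reads) in bone stayed below both RM1 libraries. Among the 7 genes called lower in RM1536, bone thus stood inside the RM1 range for Cd24a and Ocln and below it for the other 5. Bone was not tested against RM1.

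In lung against RM1536, 0 of all genes and 0 members were called by edgeR (0%), with 5 members among 1902 genes at an unadjusted p under 0.05. DESeq2 called Jup and Cldn6 as lower, at a background of 2.81% of 12491 genes (1.4% as higher and 1.41% as lower). Cldn6 in lung, at 3.51 CPM, lay below both RM1536 libraries (36.9 and 18.3 CPM; -2.97 ± 0.56, edgeR adjusted p = 0.269). Ocln had 4 reads in lung against 39 and 27 in RM1536 (-2.91 ± 0.74, edgeR adjusted p = 0.298). Jup stood at 85.4 CPM in lung against 175 and 230 CPM in RM1536 (-1.25 ± 0.29, edgeR adjusted p = 0.295). Epcam had 3 reads in lung against 51 over the RM1536 pair, a ratio of 0.129 (exact 95% counting interval 0.0258 to 0.4; edgeR adjusted p = 0.327). Dsc2 was the tested member that stood above both RM1536 libraries at an unadjusted p under 0.05, at 20.2 CPM in lung against 9.05 and 3.2 CPM in RM1536 (1.72 ± 0.70, edgeR adjusted p = 0.363). Krt20 and Cd24a, with 2 reads and 1 read in lung, were not detectable above the level of RM1536.

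**Figure D4:**
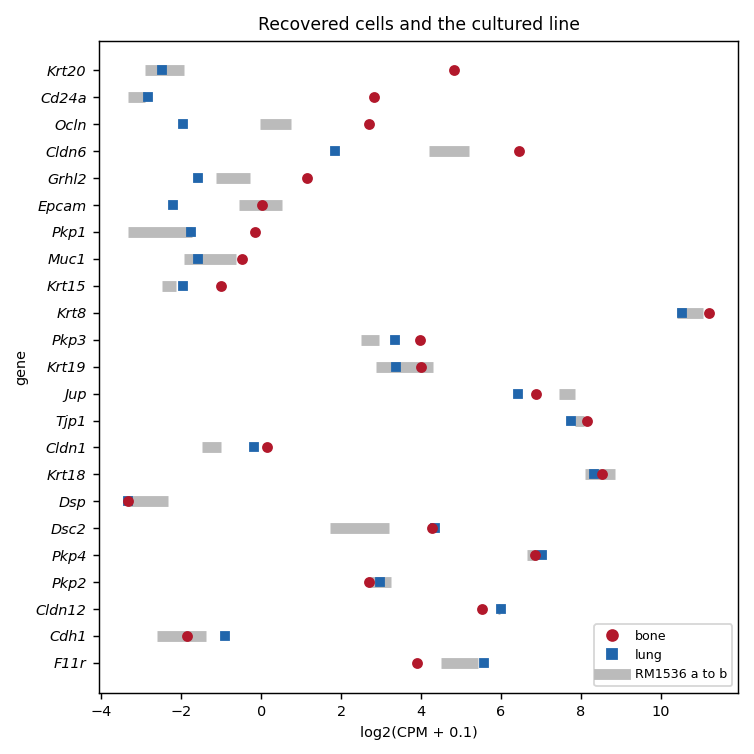
Level of the 23 tested genes as log2(CPM + 0.1) in bone (red circle) and lung (blue square), with the span between the RM1536 libraries as a grey bar; genes are sorted by the difference of bone and lung, largest at the top. Krt20, Cd24a, Ocln and Cldn6 are the genes with the widest gap, with bone to the right, and F11r, at the bottom, has bone to the left.

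Between the sites, 0 members were called in bone against lung, where 0.00723% of all genes (1 gene) passed, and 7 members were among the 1171 genes at an unadjusted p under 0.05. DESeq2 called Krt20, Cd24a, Ocln and Cldn6 as higher in bone, at a background of 1.71% of 12759 genes (0.502% as higher and 1.21% as lower). Krt20 is among these calls and among the 7 members. It passed the low-count filter through bone alone, so its p-values and calls here are those of a gene picked by its bone level. For Krt20, 645 reads in bone against 2 in lung gave a ratio of 359 (exact 95% counting interval 98.9 to 2970; edgeR adjusted p = 0.147). For Cd24a, 159 reads in bone against 1 in lung gave a ratio of 177 (interval 31.3 to 7030; edgeR adjusted p = 0.198). Ocln, with 145 reads in bone against 4 in lung, had a log2 difference of 5.29 ± 0.80 (edgeR adjusted p = 0.198), and Cldn6 had one of 4.63 ± 0.63 (0.165). Grhl2, with 48 reads in bone against 6 in lung (3.13 ± 0.85, edgeR adjusted p = 0.435), and Epcam, with 21 reads against 3 (ratio 7.79, interval 2.33 to 40.8; edgeR adjusted p = 0.57), lay the same way. F11r lay the other way, at 14.7 CPM in bone against 47.4 CPM in lung (-1.69 ± 0.50, edgeR adjusted p = 0.478). Without RM1 b, 3 members were called, among them Krt20 (edgeR adjusted p = 0.0353) and Cd24a (0.0487).

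With bone and lung together against RM1536, 0 members were called against 0.0289% of all genes (4 genes), and 5 members were among 1837 genes at an unadjusted p under 0.05. DESeq2 called Krt20 as higher and Jup as lower, at a background of 3.63% of 12759 genes (1.76% as higher and 1.87% as lower). Krt20, with 645 reads in bone and 2 in lung, passed the low-count filter through bone alone. Its call and its place among the 5 members thus come from bone and are no shared gain of both sites. Cd24a, also among the 5, had 159 reads in bone and 1 in lung. Jup, lower in both recovered libraries than in both RM1536 libraries, had a log2 fold change of -1.02 ± 0.22 (edgeR adjusted p = 0.199). Dsc2, at 19.1 CPM in bone and 20.2 in lung against 9.05 and 3.2 CPM in RM1536, lay higher in both (1.68 ± 0.61, edgeR adjusted p = 0.34), as did Pkp3 (0.94 ± 0.28, 0.291).

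Type I keratin genes sit side by side on chromosome 11, and the neighbours of Krt19 and Krt20 were looked at after the values of the members were seen. Krt13, next to Krt15, is a keratin of stratified, non-cornified epithelia. It stood at 0.834 CPM in bone, 0.434 in lung, 0.845 and 0.227 in RM1536, and 19.7 and 10.3 in RM1, and it was lower in RM1536 (-4.83 ± 0.70, edgeR adjusted p = 0.0216). Krt13, Krt15 and Krt19 thus form a run of 3 adjacent genes that were each lower. Krt36, on their far side, had 5 reads in RM1536 against 22 in RM1 (ratio 0.237, exact 95% counting interval 0.0702 to 0.642; edgeR adjusted p = 0.219). Near Krt20, Krt12, a keratin of the cornea, had 52 reads in bone and 0 in the other 5 libraries, at least 42.4-fold higher than in RM1536 (edgeR adjusted p = 0.164). Krt27, a hair follicle keratin, had 17 reads in bone, 1 in lung and 0 in the cultures, at least 13.9-fold higher in bone than in RM1536 (edgeR adjusted p = 0.305). Krt12 and Krt27 passed the low-count filter through bone alone, so their p-values are those of genes picked by their bone level. Krt10, which lies between Krt12 and Krt27, had 260 reads in bone, 256 in lung, 235 and 241 in RM1536, and 129 and 95 in RM1, and Krt23, on the other side of Krt20, had 0 throughout.

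**Figure D5:**
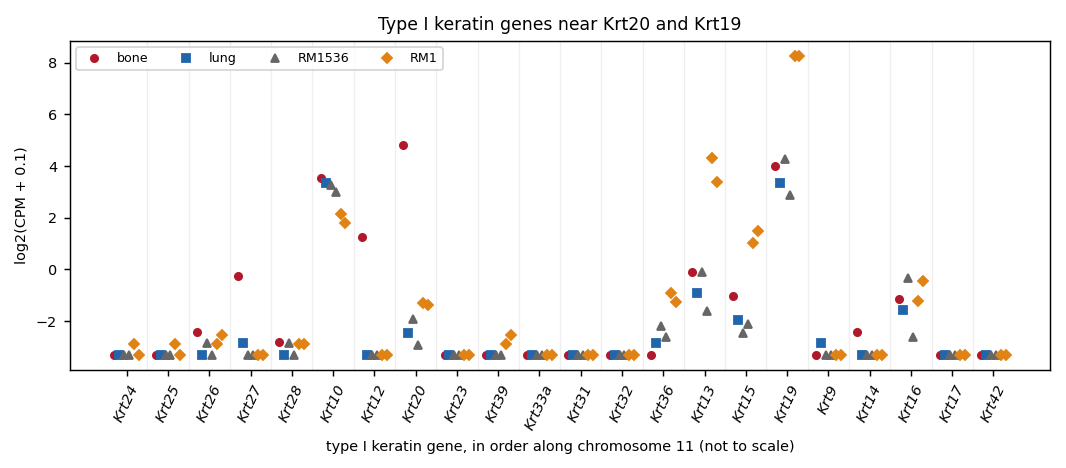
Level of 22 type I keratin genes as log2(CPM + 0.1), in their order along chromosome 11 and not to scale; each gene has 1 point for bone, 1 for lung and 2 each for RM1536 and RM1. Krt27, Krt12 and Krt20 stand out in bone alone, and Krt13, Krt15 and Krt19 stand out in RM1.

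Other epithelial genes were followed in 8 lists of 169 genes, of which 143 have an entry and 87 were tested. In RM1536 against RM1, 3 were higher and 11 lower, which is 16.1% of those tested beside 5.64% over all genes. DESeq2 called 22 of the list genes, and 10.8% over all genes. Of 26 tight junction scaffold and polarity genes, Jam2, a junctional adhesion molecule gene, was higher, at 8.13 and 8.22 CPM in RM1536 against 0.2 and 0.319 CPM in RM1 (4.96 ± 0.43, edgeR adjusted p = 0.00871). The polarity gene Pard6g was higher as well (2.94 ± 0.37, edgeR adjusted p = 0.0159), and Inadl, a polarity scaffold gene, was lower (-2.27 ± 0.35, 0.0242). Of 15 adherens junction genes, those lower included Lmo7 (-2.32 ± 0.22, edgeR adjusted p = 0.00942) and the nectin gene Pvrl2 (-1.58 ± 0.30, 0.0413). Of 7 other desmosome and cornified envelope genes, periplakin, Ppl, was lower (-3.77 ± 0.69, edgeR adjusted p = 0.0375), as was Sfn, a 14-3-3 protein gene of epithelia (-1.99 ± 0.34, 0.0318). Of 8 hemidesmosome genes, the integrin gene Itgb4 was higher, at 4.87 and 3.5 CPM in RM1536 against 0.869 and 0.85 CPM in RM1 (2.28 ± 0.39, edgeR adjusted p = 0.0323). Of 9 transcription and splicing factors, Rbm47 (-3.93 ± 0.58, edgeR adjusted p = 0.0219) and Klf5 (-1.94 ± 0.37, 0.0415) were lower, and of 14 surface and membrane genes, the villin-like gene Vill (-4.95 ± 0.49, 0.0101) and the protease inhibitor gene Slpi (-2.77 ± 0.47, 0.0323) were lower. Krt13 was the 1 call among 7 other keratins, and 1 other claudin was tested and not called.

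Of 14 tested repressors of epithelial genes, 0 were called in RM1536 against RM1 by edgeR, 2 had an unadjusted p under 0.05 and DESeq2 called 1, with a median log2 fold change of 0.20. The DESeq2 call was Tcf4, which encodes an E-box binding factor, at 380 and 348 CPM in RM1536 against 222 and 188 CPM in RM1 (0.83 ± 0.21, edgeR adjusted p = 0.0787; 0.0101 with DESeq2). Klf8 was the other gene at an unadjusted p under 0.05 (1.39 ± 0.54, edgeR adjusted p = 0.195). Both are named after their values were seen. Zeb1 stood at 60.5 CPM in bone, 83.2 in lung, 72.5 and 76.8 in RM1536, and 52.7 and 64.3 in RM1. Zeb2 stood at 61.2 CPM in bone, 101 in lung, 58.9 and 38.4 in RM1536, and 38.2 and 57.6 in RM1. Snai2 stood at 11.3 CPM in bone, 31.5 in lung, 20.7 and 14.5 in RM1536, and 11 and 40.2 in RM1, so the RM1 duplicates enclosed the other libraries. Snai1 lay at 31.4 to 37 CPM and Twist1 at 82.5 to 123 CPM in the 6 libraries. In the other 4 comparisons edgeR called 0 of the 87 epithelial genes and 0 of the 14 repressors. Of the 87 there were 14 to 23 at an unadjusted p under 0.05 and 3 to 9 called by DESeq2, and of the repressors 0 to 2 and 0 in each. Over all 13832 genes, 1171 to 1902 had an unadjusted p under 0.05 in these comparisons, and DESeq2 called 1.71% to 3.63% of its genes. Among the markers of other cell types, the mesothelial gene Bnc1 and the protease gene Ctsk were higher in RM1536 than in RM1, and Laptm5 and Dmp1 were lower (edgeR adjusted p between 0.0146 and 0.0477), and their part in the calls above was not tested.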

How the data were processed

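The deposited table holds raw read counts per gene for 6 libraries. Per the submitters' processing notes, the genome was GRCm38 and the tools were TopHat2 2.1.10, HTSeq and edgeR, with no role given. The sources used here do not give the strand setting or the annotation release. The library kit was NEBNext Ultra, per the labels' protocols. Of 23792 entries, 1 with a blank name (0.00626% to 0.0083% of a library's counts) was left out. Depth was 22763835 to 30303566 counts.

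Tests were run with edgeR 4.0.16 (R 4.3.3), using TMM scaling (factors 0.942 to 1.03), filterByExpr by group, and the quasi-likelihood fit and test with all 6 libraries in 1 model of 4 groups. Benjamini-Hochberg adjustment ran over 13832 genes, and a call is an adjusted p under 0.05. Residual degrees of freedom were 2, from the culture duplicates. The SE of a log2 fold change was derived from the F statistic and is approximate near 0 reads. Counting intervals are exact 95% binomial intervals and, like the limit of 3 reads, cover counting error only, since reads without molecular identifiers are not independent molecules. The fit was tested on simulated data for RM1536 against RM1 alone, with the same spread given to every gene. Comparisons with bone or lung were not covered by it. DESeq2 1.42.0 was an alternative, with other scaling, filters, left-out libraries and the library letter as a block.

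Positions, exon lengths and gene types come from GENCODE M21 and promoter sequences from RefSeq. Members, gene lists and tests were chosen with earlier results of these data known. Named with full values are the called members and Cdh1, Epcam, Krt8, Krt18, Krt19, Ocln, Grhl2 and Esrp1; other members by level, range and counts; of the other lists, at most 3 called genes each with a mean of at least 1 CPM. Some genes of these lists are not reported here.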

Additional observations from a re-analysis of the deposited data

Results flagged for a closer look

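In 6 genes with at least 1 CPM in some library, bone and lung lay on opposite sides of both RM1536 libraries. Each site is 1 library of the same mouse, and none of the 6 passed the edgeR test of bone against lung. Ocln had a log2 fold change of bone against lung of 5.29 (edgeR adjusted p = 0.198), with bone above and lung below both RM1536 libraries. For Cldn6 it was 4.63 (0.165), for Grhl2 3.13 (0.435) and for Tjp1 0.41 (0.742), in the same arrangement. F11r had -1.69 (0.478) and Cldn12 -0.47 (0.688), with bone below and lung above both RM1536 libraries. For Tjp1 and Cldn12 the levels were close: Tjp1 stood at 286 CPM in bone and 215 in lung beside 231 and 268 in RM1536, and Cldn12 at 46.0 CPM in bone and 63.8 in lung beside 61.1 and 62.5 in RM1536.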

How the results depend on the processing

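With no replicate of bone or lung and 2 residual degrees of freedom, the counts of calls against RM1536 or between the sites moved widely with the setting; the cause was not tested. Without a low-count filter edgeR called 2394 genes in RM1536 against RM1, 859 genes and 6 members in bone against RM1536, 1299 and 5 in lung against RM1536, 754 and 6 in bone against lung, and 1225 and 3 with the sites together. DESeq2 called 1471 genes in RM1536 against RM1, 379 genes and 4 members in bone against RM1536, 351 and 2 in lung against RM1536, 218 and 4 in bone against lung, and 463 and 2 with the sites together. A stricter filter (1 CPM in 2 libraries) left 0 genes in bone against lung and 0 with the sites together. Leaving out each culture library in turn gave 196 to 513 genes and 2 to 7 members in RM1536 against RM1, 0 to 128 genes and 0 to 2 members in bone against RM1536, 0 to 7 genes in lung against RM1536, 1 to 32 genes and 0 to 3 members in bone against lung, and 0 to 75 genes with the sites together. With a library left out, Krt18 ran from -0.51 (without RM1536 a) to 0.24 (without RM1536 b) in RM1536 against RM1, with no call.

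The letters a and b are shared by RM1536 and RM1, and the labels do not say that they pair the libraries. The differences of a and b in the lines correlated at -0.518 over 9028 genes. With the letter as a replicate block, 250 genes and 3 members were called; with the pairing crossed, chosen after seeing the data, 3318 genes. For bone and lung no paired fit was possible because they carry no letter. Of the 7 called members, F11r kept its call under 8 of 10 alternatives, Krt15 and Dsp under 7, and Ocln and Pkp2 under 6, and all kept their direction. Depth limits the 13 untested genes, Cdh1, Epcam and Muc1.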

Other observations

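Krt76, a type II keratin gene near Krt8 on chromosome 15, was looked at after its values were seen. It had 276 reads in bone, 113 in lung, 44 and 76 in RM1536, and 21 and 67 in RM1, so both recovered libraries lay above all 4 cultures. The ratio of bone to RM1536 was 5.63 (exact 95% counting interval 4.53 to 7.04) and that of lung to RM1536 was 2.07 (1.59 to 2.7). Neither difference was called (edgeR adjusted p = 0.283 for bone and 0.508 for lung), and the intervals cover counting error only. Cldn9, the claudin gene beside Cldn6, had 3 to 6 reads in each library, including bone, where Cldn6 had 1985.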
